A study of Mus musculus with 12 samples.

Results

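The immediate early transcription factors described here are the rows of the deposited expression table with the symbols Fos, Fosb, Fosl1, Fosl2, Jun, Junb, Jund, Egr1, Egr2 and Nr4a1, which are 10 of its 20540 genes. The samples were mouse oligodendrocyte progenitor cells (OPCs), proliferating precursors of the myelin-forming cells of the brain. They came from C57BL/6 mice, from brain tissue of postnatal day 6 to 7, and were grown in SATO+PDGFRA media. All of them were transfected with a biotin-tagged miRNA mimic, a synthetic RNA that acts as a mature microRNA, so that every control had also been through transfection. The 4 groups were whole-cell RNA under control mimic, whole-cell RNA under miR-27a mimic, RNA pulled down under control mimic and RNA pulled down under miR-27a mimic, with 3 libraries each. No label says whether the libraries of a group came from separate cultures or animals, so that p-values cover only the spread among these libraries, and part or all of it may be technical.

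Immediate early genes are transcribed within minutes of a growth factor, calcium or stress signal, without new protein synthesis, through factors such as SRF and CREB that are already bound or ready in the cell. FOS and JUN proteins pair to form AP-1, which binds DNA only as a dimer. EGR1 and EGR2 are zinc-finger factors, and EGR2 is the factor required for myelination by Schwann cells in peripheral nerve. NR4A1 is an orphan nuclear receptor. Their mRNAs are mostly short-lived, and AU-rich elements in the 3′ UTR speed decay of several of them.

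Levels are in CPM, assigned reads scaled by the size of the library, and changes are differences of log2(CPM + 1) ± their standard error, which understate the change of low genes. Libraries held 15548418 to 24972188 assigned reads. Pulldown miR-27a replicate 2 stood apart: its reads differed from those of replicates 1 and 3 of its group by a chi-square of 28.1 and 17.5 per gene, against 9.56 between those replicates and 1.82 to 7.95 between replicates of the other groups. OPC markers summed to 2652 to 2756 CPM in whole-cell RNA and 4241 to 5084 CPM in pulldown RNA, with all 10 detected in every group. Other glia were present too, with astrocyte markers at 7428 to 8895 CPM and mature oligodendrocyte markers at 10658 to 11666 CPM in whole-cell RNA. In bulk RNA such as this, fewer cells of a type and less RNA per cell cannot be told apart.

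The seed of miR-27a, bases 2 to 8 of the mature strand, is the stretch that pairs with sites in 3′ UTRs, so the mature sequences (RefSeq, GRCm38.p6) and the matches in members are shown first. The seed is in capitals in the microRNAs, and miR-27b carries the same one.
miR-27a-3p: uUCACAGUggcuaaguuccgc
miR-27b-3p: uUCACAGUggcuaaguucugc
The next sequences are the members' seed matches with their flanks, read from the mRNA strand of GRCm38 with GENCODE M21 annotation, with the bases that match in capitals. Coordinates are those of the printed stretch.
Fosb: ctggagcgctttatACTGTGAAtgagtgg
Fosl2: tgaacttgggctggACTGTGAgcagctc
Jun: tgaagtggcatgtgCTGTGAtcattta
Fosl1: ggcgccaggggcttCTGTGAggagcgg
Fosb held the longest match, the 8mer ACTGTGAA, within chr7:19303914-19303942 on the minus strand, 1077 bases after the stop codon of a 3′ UTR of 2302 bases. Fosl2 held the 7mer ACTGTGA, within chr5:32155646-32155673 on the plus strand, 2472 bases into a 3′ UTR of 4653 bases. Jun (chr4:95049229-95049255, minus strand), Fosl1 (chr19:5455781-5455807, plus strand) and Egr1 held only the 6mer CTGTGA. Fos, Junb, Jund, Egr2 and Nr4a1 had no match to the 6mer in the annotated 3′ UTR. Among 15543 deposited genes with an annotated 3′ UTR, 6.12% held the 8mer, 27.8% an 8mer or a 7mer (ACTGTGA or CTGTGAA) and 46.2% the 6mer. A match is a description of the letters and not a measured binding site. The AU-rich 7mer TATTTAT occurred 2 times in the 3′ UTR of Fos, 3 times in that of Fosl2 and 1 time in those of Fosb, Fosl1, Jun and Jund, and 28.7% of all 3′ UTRs held at least 1.

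**Figure D1:**
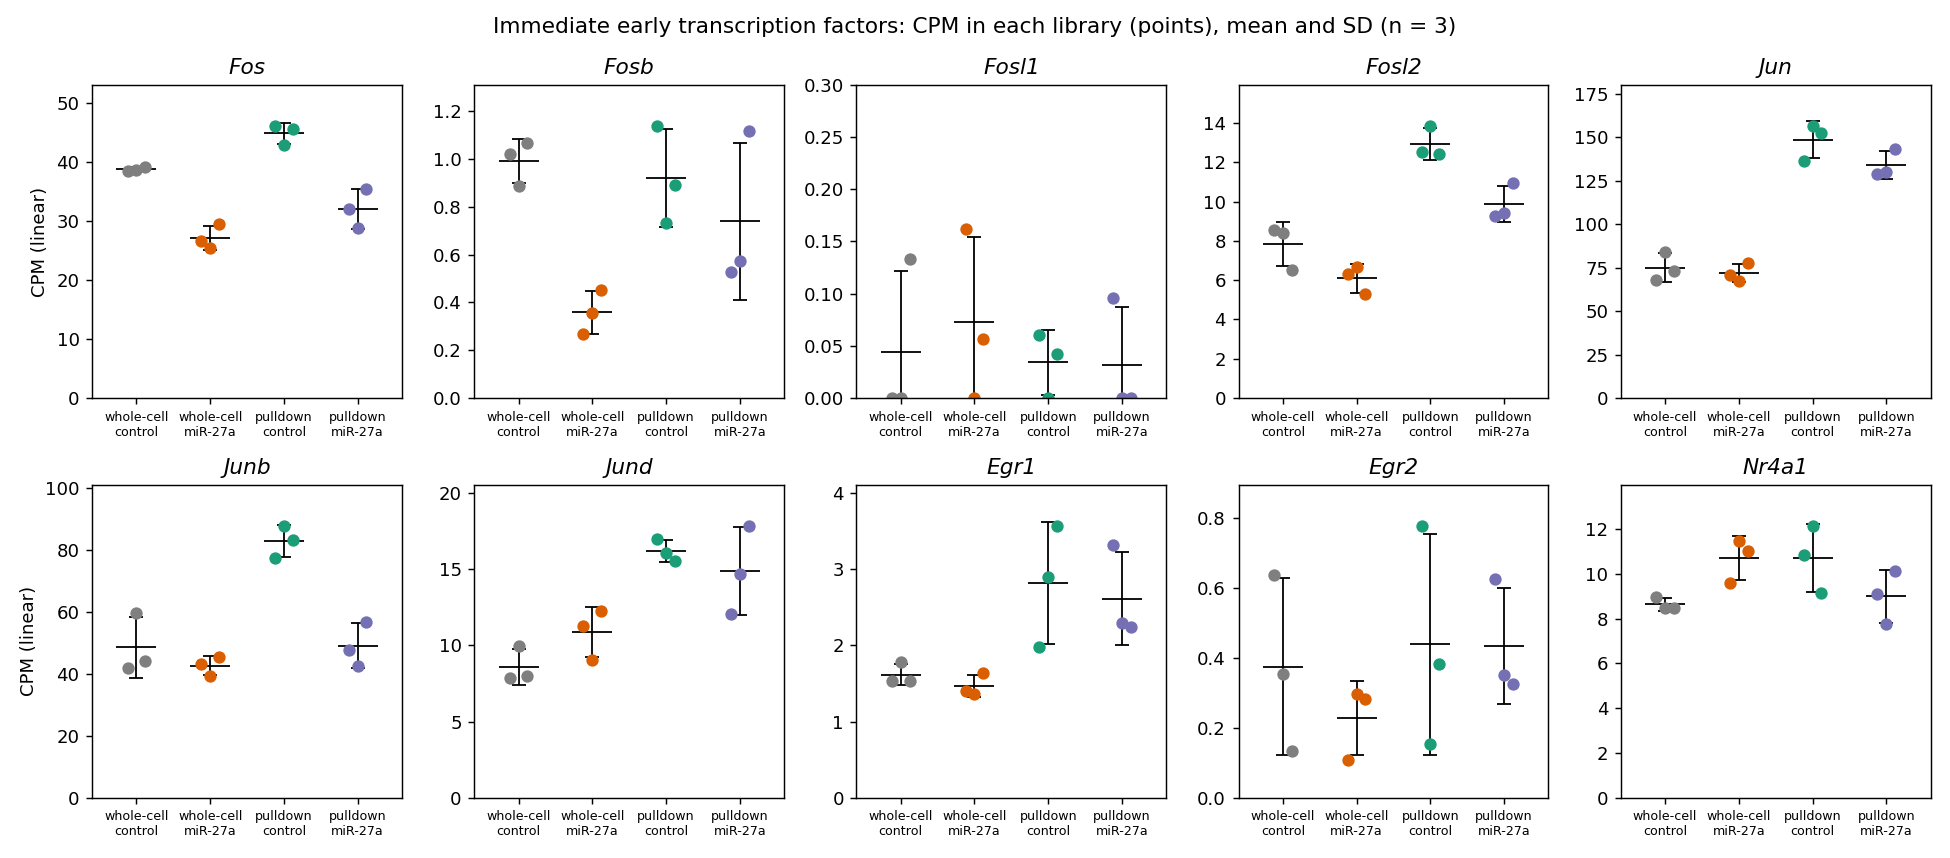
CPM of each member on a linear axis, 1 panel per gene, with 1 point per library. Bars mark the mean and SD of each of the 4 groups of 3. Fos points of the control groups lie above those of the miR-27a groups in both kinds of RNA, and Jun points lie higher in pulldown than in whole-cell RNA.

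Fos, the best known FOS partner of AP-1, fell under miR-27a mimic in both kinds of RNA. It lies at chr12:85473890-85477273 on the plus strand of GRCm38 and has 4 exons. In whole-cell RNA its levels were 38.6, 38.7 and 39.2 CPM under control mimic and 26.7, 25.5 and 29.5 CPM under miR-27a. Its pulldown levels were 46.2, 42.9 and 45.7 CPM under control mimic and 32.1, 28.8 and 35.5 CPM under miR-27a. Every miR-27a library was below every control library of the same kind of RNA. The change was -0.50 ± 0.06 in whole-cell RNA (95% interval -0.63 to -0.37, limma adjusted p = 2.81e-06, n = 3 and 3), with a ratio of mean CPM of 0.701. It was -0.48 ± 0.10 in pulldown RNA (-0.69 to -0.27, limma adjusted p = 0.0045), with a ratio of 0.715. Without pulldown miR-27a replicate 2 the latter was -0.40, with a limma adjusted p of 0.00107.

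Fosb, the FOS family member whose truncated isoform is long-lived, was scarce, with 5 to 24 reads per library. In whole-cell RNA it stood at 1.02, 0.888 and 1.07 CPM under control mimic and 0.269, 0.355 and 0.450 CPM under miR-27a. The miR-27a libraries were all lower, and the mean CPM under miR-27a was 0.361 of that under control mimic. Only 2 of these 6 libraries reached 1 CPM, so Fosb was not tested in the main fit, which needs 3. With no filter on low values its change was -0.55 ± 0.09 and passed (limma adjusted p = 0.00211). In pulldown RNA the groups overlapped, at 1.14, 0.733 and 0.893 CPM under control mimic and 0.529, 0.571 and 1.12 CPM under miR-27a.

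Fosl2, a FOS relative without the transactivation domain of FOS, had lower means under miR-27a in both kinds of RNA and passed the main test in neither. Whole-cell levels were 8.54, 8.40 and 6.54 CPM under control mimic and 6.30, 6.69 and 5.29 CPM under miR-27a, and these groups overlapped. Pulldown levels were 12.5, 13.9 and 12.4 CPM under control mimic and 9.28, 9.41 and 10.9 CPM under miR-27a, with no overlap. The change was -0.31 ± 0.12 in whole-cell RNA (limma adjusted p = 0.0561) and -0.36 ± 0.12 in pulldown RNA (limma adjusted p = 0.0635). No label says that replicate numbers pair libraries, though same-numbered pulldown libraries deviated together. With replicate number as a block the pulldown value passed (limma adjusted p = 0.0437), as it did in the fit of all 12 libraries (0.0368). The whole-cell value passed in 4 of 15 alternatives, with the lowest limma adjusted p, 0.0188, without whole-cell control replicate 3, and the highest was 0.249. Fosl1, the other such relative, held 10 reads over all 12 libraries and none in 6 of them, and its highest level, 0.162 CPM, was within the 0.116 to 0.200 CPM that 3 reads come to.

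Junb, a JUN family member encoded by 1 exon at chr8:84974484-84978718 on the minus strand, fell under miR-27a in pulldown RNA. The pulldown levels were 77.4, 87.9 and 83.2 CPM under control mimic and 47.8, 42.5 and 56.8 CPM under miR-27a. All miR-27a values lay below all control values, and the ratio of means was 0.592. The change was -0.75 ± 0.10 (-0.97 to -0.53, limma adjusted p = 0.000198), and it was, when replicate 2 of pulldown miR-27a, the lowest library, was left out, -0.66 (limma adjusted p = 2.35e-08). Levels in whole-cell RNA were 41.8, 59.7 and 44.1 CPM under control mimic and 43.1, 39.4 and 45.5 CPM under miR-27a. These groups overlapped, with 1 control library well above the other 2, and the change was -0.17 ± 0.09 (-0.35 to 0.01, limma adjusted p = 0.172). That value rested on single control libraries: it was -0.01 without whole-cell control replicate 2 (limma adjusted p = 0.916) and -0.26, past the threshold, without replicate 1 (0.0147).

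Jun, the most studied AP-1 subunit and the substrate of JNK kinases, lies at chr4:95049034-95052222 on the minus strand, also as 1 exon. In whole-cell RNA its levels were 67.8, 84.1 and 73.1 CPM under control mimic and 71.1, 67.2 and 77.7 CPM under miR-27a. Its pulldown levels were 136, 157 and 153 CPM under control mimic and 129, 130 and 143 CPM under miR-27a. The mimic groups overlapped in both kinds of RNA, while every pulldown library was above every whole-cell library. The change under miR-27a was -0.06 ± 0.06 in whole-cell RNA (-0.19 to 0.08, limma adjusted p = 0.568) and -0.15 ± 0.09 in pulldown RNA (-0.33 to 0.03, limma adjusted p = 0.298).

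Jund, the JUN family member that is usually least inducible, also has 1 exon (chr8:70698949-70700616, plus strand). Whole-cell levels were 7.84, 9.94 and 8.01 CPM under control mimic and 11.3, 9.06 and 12.3 CPM under miR-27a. Pulldown levels were 16.96, 16.1 and 15.5 CPM under control mimic and 12.1, 14.7 and 17.9 CPM under miR-27a. Groups overlapped in both, with changes of 0.30 ± 0.11 in whole-cell RNA (limma adjusted p = 0.0531) and -0.13 ± 0.13 in pulldown RNA (limma adjusted p = 0.583). The whole-cell value lay near the threshold and passed in 4 of 15 alternatives, with the lowest limma adjusted p, 0.0115, without whole-cell control replicate 2.

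Nr4a1 rose in whole-cell RNA under miR-27a, where its levels were 8.99, 8.46 and 8.48 CPM under control mimic and 9.59, 11.5 and 11.03 CPM under miR-27a. The groups did not overlap, and the change was 0.28 ± 0.10 (0.07 to 0.48, limma adjusted p = 0.0412). It no longer passed when whole-cell control replicate 2 (limma adjusted p = 0.0793) or 3 (0.102), or whole-cell miR-27a replicate 2 (0.153) or 3 (0.134), was left out. The same held with no filter on low values (limma adjusted p = 0.104) and in the fit of all 12 libraries (0.164). In pulldown RNA the levels were 10.8, 12.2 and 9.14 CPM under control mimic and 9.09, 7.78 and 10.1 CPM under miR-27a, which overlapped (change -0.23 ± 0.14, limma adjusted p = 0.327).

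Egr1 and Egr2 were low throughout. Egr1 ranged from 1.36 to 1.78 CPM in whole-cell RNA and from 1.98 to 3.57 CPM in pulldown RNA, and its mimic groups overlapped in both. Its change under miR-27a was -0.08 ± 0.14 in whole-cell RNA (limma adjusted p = 0.719) and -0.07 ± 0.19 in pulldown RNA (limma adjusted p = 0.861). Egr2 reached 1 CPM in no library, held 84 reads in all and was not tested.

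Read together, 1 member rose (Nr4a1) and 1 fell (Fos) of the 7 tested for the mimics in whole-cell RNA, where 24.9% of all 13393 genes tested were called, 13% higher and 11.9% lower. In pulldown RNA 2 members fell (Junb and Fos) of 7 tested, where 13.1% of 13586 genes were called, 6.05% higher and 7.06% lower. Groups did not overlap for 2 of 7 members in whole-cell RNA, 1 in each direction, against 20.3% of genes higher and 18.4% lower. In pulldown RNA 3 of 7 members were lower with no overlap, against 16.6% of genes. The median change of the tested members was -0.08 in whole-cell RNA, where it was 0.01 over all genes, and -0.23 in pulldown RNA, where it was -0.00.

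**Figure D2:**
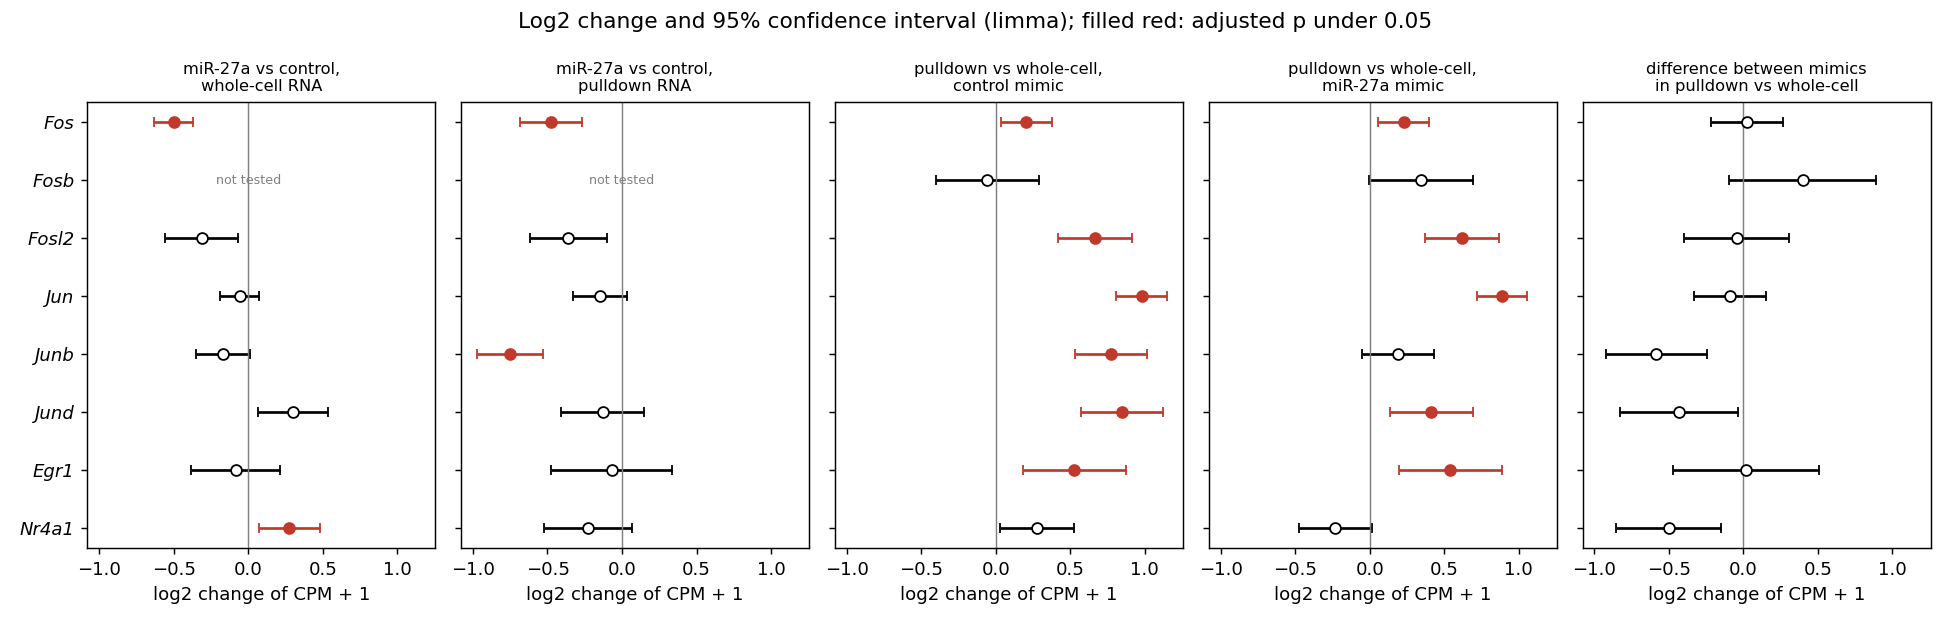
Change in log2(CPM + 1) of each tested member with its 95% interval, for the mimics within each kind of RNA and for the kinds of RNA within each mimic. The Fos intervals for the mimics lie below 0 in both kinds of RNA, the Junb interval lies below 0 only in pulldown RNA, and Jun has the largest pulldown change under both mimics.

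Markers of cell types moved in the same comparisons, where 24.9% of all genes tested were called in whole-cell RNA and 13.1% in pulldown RNA. Of the 10 astrocyte markers 7 fell and none rose under miR-27a in whole-cell RNA, where their summed level went from 8876 to 8895 CPM under control mimic to 7428 to 7461 CPM under miR-27a. The same count, 7 of 10, fell in pulldown RNA, from 5780 to 5937 CPM down to 4099 to 4602 CPM. Microglia and macrophage markers summed to 26.3 to 29.5 CPM under control mimic and 21.9 to 23.6 CPM under miR-27a in whole-cell RNA. In pulldown RNA they summed to 26.2 to 31.8 CPM and 20.2 to 23.5 CPM. Only 1 of the 9 tested was called in each kind of RNA, C1qa, as lower. Mature oligodendrocyte markers in pulldown RNA went from 5122 to 5723 CPM down to 3764 to 4798 CPM, with 5 of 7 lower. In whole-cell RNA they summed to 11174 to 11666 CPM under control mimic and 10658 to 11040 CPM under miR-27a. Of 8 tested there, 3 were lower and 1, Opalin, was higher. Klk6 was the 1 marker of that list at 0, in both control groups. Endothelial, mural and fibroblast markers in whole-cell RNA stood at 82.9 to 92.7 CPM under control mimic and 58.1 to 62.9 CPM under miR-27a, with 1 higher and 2 lower of 6. Most of the difference in that sum lay in 1 gene, the smooth muscle actin Acta2, whose mean went from 46.0 to 15.5 CPM, while Kdr went from 5.64 to 8.68 CPM. OPC markers mostly moved the other way, with 5 higher and 1 lower of 10 in whole-cell RNA. Pdgfra was the 1 that fell, from a mean of 554 to 502 CPM. The OPC markers summed to 2652 to 2733 CPM under control mimic and 2744 to 2756 CPM under miR-27a in whole-cell RNA. In pulldown RNA 4 were higher and none lower, and their sum went from 4241 to 4317 CPM up to 4951 to 5084 CPM. Neuron markers summed to 161 to 182 CPM under control mimic and 207 to 234 CPM under miR-27a in whole-cell RNA. Of 7 tested, 1 was higher, Tubb3, whose mean went from 104 to 159 CPM. The 1 lower was Snap25, from 28.1 to 21.1 CPM. The part of these cell types in the falls of Fos and Junb was not tested.

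Pulldown RNA held more of most members than whole-cell RNA did. Under control mimic Jun was 1.98 times as high on the CPM scale (change 0.98 ± 0.08, limma adjusted p = 1.08e-08), Jund 1.88 times (0.85 ± 0.13, 2.18e-05), Junb 1.71 times (0.77 ± 0.11, 1.14e-05) and Fosl2 1.65 times (0.66 ± 0.12, 9.08e-05). For these 4 genes every pulldown control library was above every whole-cell control library. Egr1 was 1.74 times as high (0.52 ± 0.16, limma adjusted p = 0.00995) and fell short without pulldown control replicate 3 (0.0642). Fos differed least among the called members, at 1.16 times (0.21 ± 0.08, limma adjusted p = 0.0351). The Fos call was lost in 5 of the 6 fits that left out 1 library, the exception being pulldown control replicate 2, with limma adjusted p from 0.0330 to 0.0962. Nr4a1 (0.27 ± 0.12, limma adjusted p = 0.0525) and Fosb (-0.06 ± 0.17, 0.785) did not pass. Nr4a1 did in 4 of 15 alternatives, and leaving out 1 library gave it changes from 0.19 to 0.37, the highest without pulldown control replicate 3 (limma adjusted p = 0.0159).

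In all, 6 of 8 tested members rose and none fell under control mimic, where 62% of 13875 genes were called, 31.7% higher and 30.3% lower. Groups did not overlap for 7 members, all higher in pulldown RNA, against 34.2% of genes higher and 33.3% lower. The members' median change was 0.59, and that of all genes was 0.02. Cell type markers moved in the same comparison, with 7 of 10 OPC markers higher and none lower (median 0.81) and 7 of 10 endothelial, mural and fibroblast markers higher and 2 lower (median 1.26). Mature oligodendrocyte markers fell, 8 of 8 (median -0.95), as did 7 of 10 astrocyte markers with 1 higher (median -0.64). Their part in the members' rise was not tested. Jun, Junb and Jund are the members encoded by 1 exon. Among 292 tested coding genes of 1 exon, 40.8% rose and 18.5% fell with a median change of 0.19, while among 11465 coding genes with introns 31.8% rose and 32.0% fell with a median of 0.00. Under miR-27a mimic 30.8% of the 1-exon genes rose and 24.0% fell, with a median of 0.06. Coding genes with under 2.5 kb of exons, the class of Junb and Jund by length, went the other way under control mimic, with 24.7% higher and 37.2% lower.

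Under miR-27a mimic the comparison of pulldown with whole-cell RNA gave 5 risen members of 8 and none fallen, where 60.2% of genes were called, 29.3% higher and 30.9% lower. Groups did not overlap for 4 members, all higher in pulldown RNA, against 31.8% of genes higher and 32.1% lower. Among the called members Jun again had the largest change (1.86 times, change 0.89 ± 0.08, limma adjusted p = 3.74e-08), followed by Fosl2 (1.62 times, 0.62 ± 0.12, 0.000204) and Egr1 (1.78 times, 0.54 ± 0.16, 0.00863). Jund (1.37 times, 0.41 ± 0.13, limma adjusted p = 0.0117) and Fos (1.18 times, 0.23 ± 0.08, 0.0211) passed although their groups overlapped. Junb did not pass (0.19 ± 0.11, limma adjusted p = 0.16), but did with reads scaled to library totals alone (0.0374) and without pulldown miR-27a replicate 2 (0.0169). With library totals 5000 genes were called higher and 3316 lower, in place of 4064 and 4286. Some calls rested on 1 library: Egr1 failed when pulldown miR-27a replicate 1 was left out (limma adjusted p = 0.0569), and Jund when whole-cell miR-27a replicate 2 (0.0819) or pulldown miR-27a replicate 3 (0.0890) was. Fos failed when whole-cell miR-27a replicate 1 (limma adjusted p = 0.0643) or 2 (0.0987) or pulldown miR-27a replicate 3 (0.129) was left out, and in the fit of the 6 miR-27a libraries alone (0.0600). Nr4a1 (-0.23 ± 0.12, limma adjusted p = 0.103) and Fosb (0.34 ± 0.17, 0.0828) did not pass. With no filter on low values Fosb did (limma adjusted p = 0.0435), and Nr4a1 passed as lower without pulldown miR-27a replicate 3 (0.0497).

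Whether the pulldown-to-whole-cell contrast differed between the mimics was tested directly. No member passed limma's adjustment, where 1.07% of genes did (0.339% higher and 0.735% lower), and voom called none either. At an unadjusted p under 0.05, 3 of 8 members remained, against 13% of all genes. Junb was the largest of them, -0.58 ± 0.16 (-0.92 to -0.25, limma adjusted p = 0.0893), and passed without pulldown miR-27a replicate 2 (0.0423) or whole-cell control replicate 2 (0.0156). Nr4a1 (-0.50 ± 0.17, limma adjusted p = 0.176) and Jund (-0.43 ± 0.19, 0.327) were the others. For Fos the difference was 0.02 (limma adjusted p = 0.961), so its falls in whole-cell and pulldown RNA were not shown to differ. The fall of Junb in pulldown RNA and its overlap in whole-cell RNA were likewise not shown to differ at the adjusted threshold.

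Levels between members can be compared only per length, here as CPM per kb of annotated exon. In whole-cell RNA under control mimic Junb (26.8) and Jun (23.5) were highest and overlapped each other, followed by Fos (18.4), Jund (5.15), Nr4a1 (3.23), Fosl2 (1.20), Egr1 (0.360) and Fosb (0.262) CPM per kb. Under miR-27a the same order held, Junb and Jun again overlapping, with Fos at 12.9 and Fosb at 0.095 CPM per kb, the latter overlapping Egr2. In pulldown RNA under control mimic Jun (46.6) and Junb (45.8) were level within their spread, above Fos (21.3 CPM per kb). Under miR-27a Jun (42.0) stood clear of Junb (27.1), which stood clear of Fos (15.2 CPM per kb). Egr2 and Fosl1 were at the bottom in all 4 groups.

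**Figure D3:**
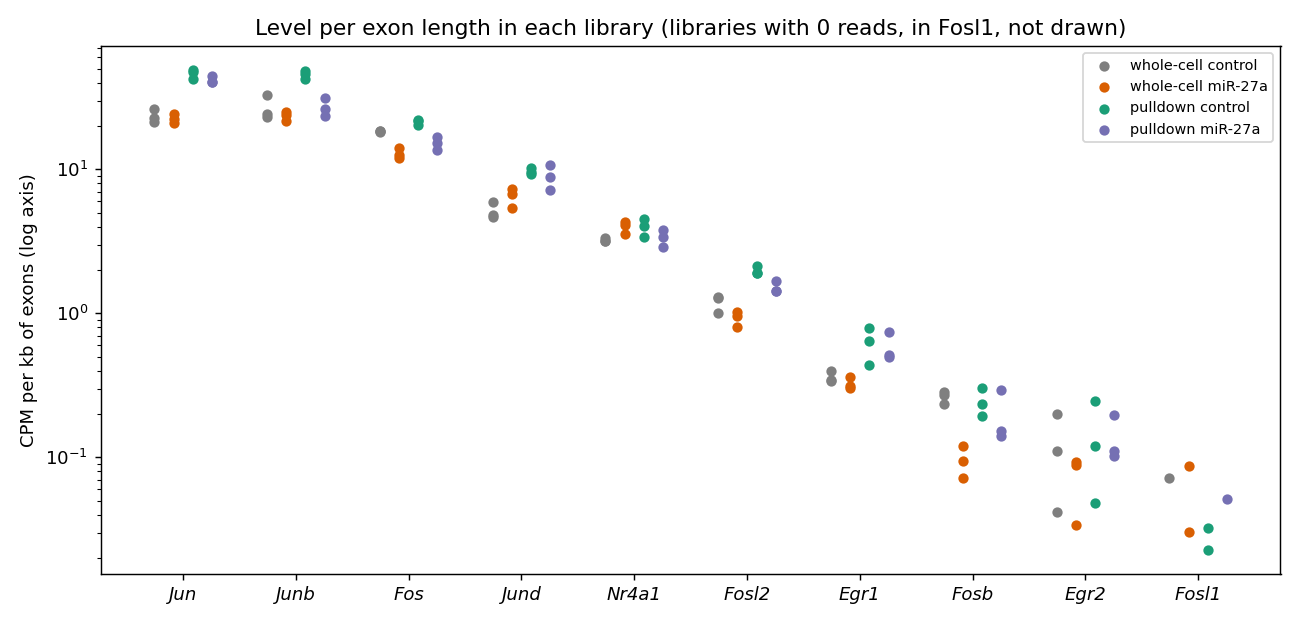
Level of each member in CPM per kb of annotated exon, on a log axis, with points for the libraries of the 4 groups. Junb and Jun lead in every group, and Junb drops from level with Jun to between Jun and Fos in pulldown RNA under miR-27a.

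The promoters of the members that fell in pulldown RNA, Fos and Junb, are shown for the letters they hold, as RefSeq (GRCm38.p6) gives them from 250 bases before to 50 bases after the annotated start. In capitals are TATAAA and, in Fos, TGACGT, a part of the CRE.
Fos: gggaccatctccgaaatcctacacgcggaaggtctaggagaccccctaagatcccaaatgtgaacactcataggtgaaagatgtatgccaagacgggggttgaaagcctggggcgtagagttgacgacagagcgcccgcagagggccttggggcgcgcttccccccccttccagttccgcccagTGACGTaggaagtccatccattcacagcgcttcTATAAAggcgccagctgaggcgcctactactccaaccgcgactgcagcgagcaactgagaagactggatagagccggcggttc
Junb: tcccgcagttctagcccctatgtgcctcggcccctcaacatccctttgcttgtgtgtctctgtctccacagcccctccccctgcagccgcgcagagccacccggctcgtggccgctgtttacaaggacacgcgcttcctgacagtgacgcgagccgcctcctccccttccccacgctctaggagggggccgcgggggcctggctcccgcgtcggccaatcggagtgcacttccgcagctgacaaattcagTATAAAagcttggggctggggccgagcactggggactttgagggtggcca
These windows are chr12:85473640-85473939 on the plus strand and chr8:84978699-84978998 on the minus strand. TATAAA, searched on the promoter's own strand, began at -33 from the RefSeq start (0) in Fos and at 0 in Junb. It was found in 8.32% of 32851 promoters. For Junb the GENCODE start, chr8:84978718, lies downstream of the RefSeq start, so that TATAAA is upstream of the GENCODE start. TGACGT, searched on both strands, was found in Fos at -66 and in Egr2, and in 7.51% of all. The variant CRE or AP-1 letters TGACATCA were found in Jun (3.62% of all), the CArG box of SRF in Egr2 (1.63%), and the EGR letters GCGGGGGCG in Fosb, Fosl2 and Nr4a1 (2.91%), all on both strands. The AP-1 letters TGANTCA were in none of the 8 members that the table holds (7.81% of all), and Fosl1 and Egr1 are not in it. TGACGTCA, of which TGACGT is a part, was in none of these 8 either (1.79%). All these searches covered only the 250 bases before and 50 bases after each annotated start, so letters farther away were not looked for. A match says nothing here of which factor is bound.

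The rest of the pathway was followed with 9 lists. Their counts for the mimics stand against the shares of all genes tested. These were 13% higher and 11.9% lower in whole-cell RNA, and 6.05% higher and 7.06% lower in pulldown RNA. Among 18 non-factor immediate early genes 4 rose and 5 fell under miR-27a in whole-cell RNA, and 1 rose and 4 fell in pulldown RNA. Nfkbiz, a nuclear regulator of NF-kappaB, fell from 21.7 to 14.1 CPM in whole-cell RNA (-0.59 ± 0.08, limma adjusted p = 8.36e-06) and from 39.7 to 20.8 CPM in pulldown RNA (-0.90 ± 0.10, 3.95e-05). Gadd45b, a stress-induced growth arrest gene, fell from 9.69 to 6.01 CPM (-0.60 ± 0.12, limma adjusted p = 0.000876) and from 11.01 to 6.12 CPM (-0.76 ± 0.14, 0.00146) in the same comparisons. Btg2, an antiproliferative gene, rose in pulldown RNA from 53.2 to 71.5 CPM (0.42 ± 0.09, limma adjusted p = 0.00492). Of the other immediate early factors, 1 rose and 2 fell of 11 tested in whole-cell RNA, and 1 rose and 2 fell of 12 in pulldown RNA. Ier3, an early-response survival gene, fell in both (-0.25 ± 0.09 and -0.50 ± 0.12, limma adjusted p = 0.0425 and 0.011). Nr4a2, a close relative of Nr4a1, stood at 2.33 CPM under control and 2.37 CPM under miR-27a in whole-cell RNA (limma adjusted p = 0.946).

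Upstream of the members, 1 of 17 factors of the serum and cAMP response rose and 1 fell in whole-cell RNA, and 2 fell in pulldown RNA. Srf, which drives Fos and Egr1 through the CArG box, was 22.9 and 23.1 CPM in whole-cell RNA (0.01, limma adjusted p = 0.901) and fell from 37.4 to 28.2 CPM in pulldown RNA (-0.40 ± 0.10, 0.0169). Creb1, which binds the CRE, rose from 178 to 200 CPM in whole-cell RNA (0.16 ± 0.04, limma adjusted p = 0.00155). Among 20 MAP kinases, the enzymes that carry the signal to these factors, 3 rose and 2 fell in whole-cell RNA and 1 fell in pulldown RNA. Araf, a RAF kinase, fell in both (-0.29 ± 0.04 and -0.58 ± 0.08, limma adjusted p = 4.9e-06 and 0.000195). Of 14 feedback inhibitors of these kinases 2 rose and 2 fell in whole-cell RNA, and none rose and 3 fell in pulldown RNA. Spred1, which blocks RAF activation, fell from 204 to 172 CPM and from 443 to 291 CPM (-0.24 ± 0.04 and -0.61 ± 0.09, limma adjusted p = 2.48e-05 and 0.000504). Spry1, a related inhibitor, rose in whole-cell RNA (0.22 ± 0.07, limma adjusted p = 0.017) and fell in pulldown RNA (-0.28 ± 0.08, 0.0313), and these changes differed by -0.50 (limma adjusted p = 0.0123).

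Among ATF, CREB, MAF and JDP genes, not all of whose proteins pair with FOS or JUN, 2 rose and 1 fell of 15 in whole-cell RNA. In pulldown RNA none of 16 passed by limma (3 at an unadjusted p under 0.05, and 0 by voom). Crem, a repressor in some isoforms, fell from 23.2 to 19.4 CPM in whole-cell RNA (-0.25 ± 0.07, limma adjusted p = 0.0162). Of the known AP-1 and EGR target genes tested, 4 rose and 6 fell of 13 in whole-cell RNA, and 3 rose and 6 fell of 14 in pulldown RNA. Tnc, an extracellular matrix glycoprotein, rose from 218 to 474 CPM (1.12 ± 0.03, limma adjusted p = 1.36e-16) and from 239 to 695 CPM (1.53 ± 0.09, 7.07e-08). Plau, the urokinase protease, fell from 20.7 to 7.19 CPM (-1.41 ± 0.09, limma adjusted p = 7.22e-11) and from 16.2 to 4.63 CPM (-1.59 ± 0.15, 8.91e-06). Timp1, an inhibitor of matrix proteases, fell as well (-0.66 ± 0.09 and -0.89 ± 0.13, limma adjusted p = 3.2e-06 and 0.000253). Target genes moved in both directions.

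**Figure D4:**
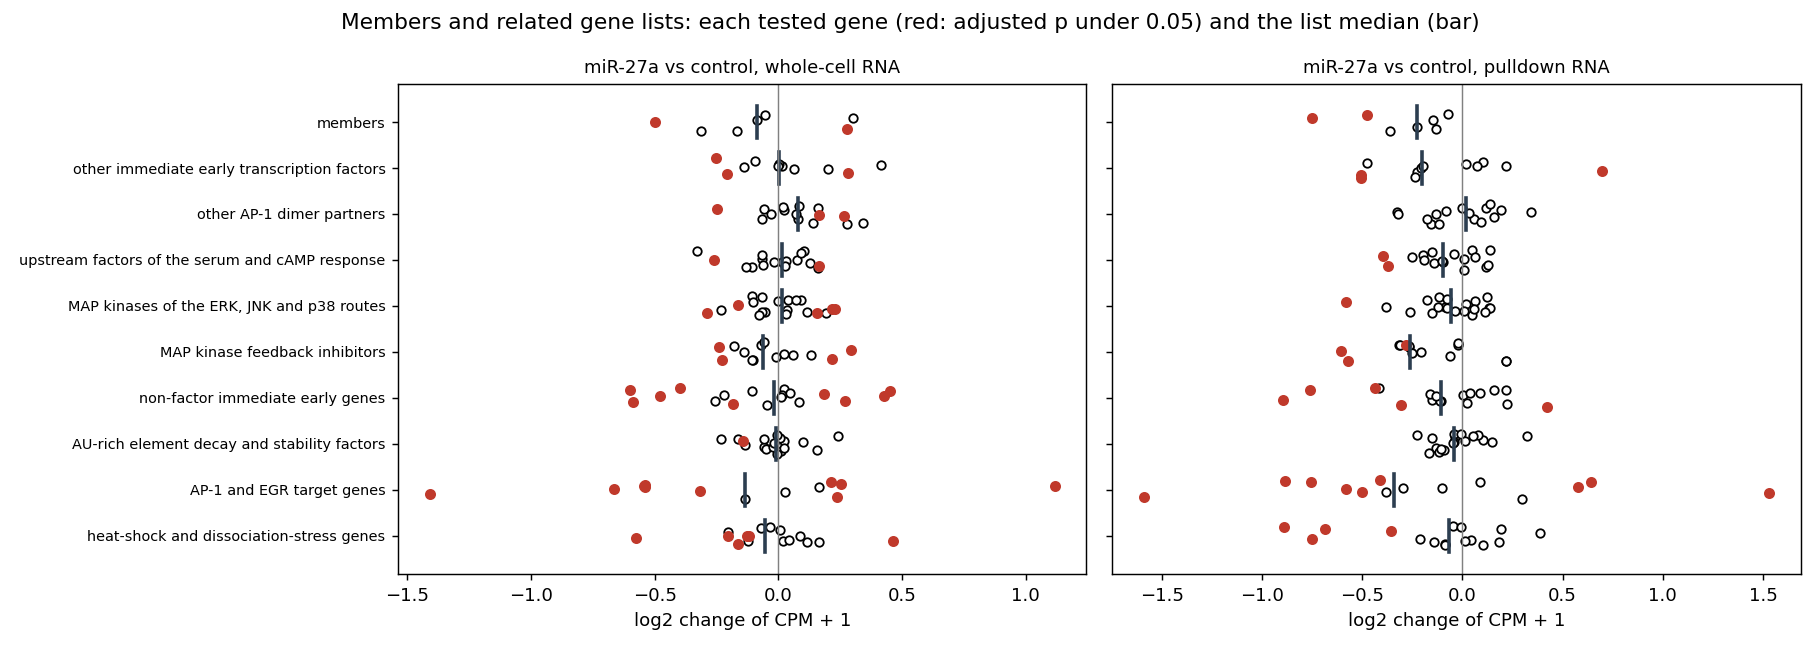
Change in log2(CPM + 1) of every tested gene of the members and of each of the 9 lists, for miR-27a relative to control mimic within each kind of RNA, with filled points for genes past the adjusted threshold and a bar at the list's median. Filled points lie on both sides of 0 for the AP-1 and EGR target genes.

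The genes whose pattern over the 12 libraries was most like that of 3 members were found by the root mean square difference of log2(CPM + 1), each gene centred on its own mean, over 13867 genes. For Fos they were Mttp (0.080), Dkk3 (0.090) and Acss1 (0.099), against a spread of Fos itself of 0.278. Jun was nearest to Spen (0.083), Rbm15b (0.083) and Zbtb22 (0.083), with its own spread at 0.480. Egr1 was nearest to Bcl9l (0.090), Hepacam (0.101) and Tmem132e (0.119), with a spread of 0.316. Like Fos, Mttp went from 17.3 to 10.6 CPM in whole-cell RNA and from 18.6 to 13.7 CPM in pulldown RNA. Like Jun, Spen stood at 25.1 and 25.3 CPM in whole-cell RNA and 48.9 and 47.6 CPM in pulldown RNA.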

How the data were processed

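RNA was isolated with TRIZOL, per the labels' protocols. The series' design text states a stranded total RNA kit with ribosomal depletion. By the same text, reads were trimmed with skewer, aligned with HISAT2 to GRCm38, sorted with SAMtools and counted per gene with featureCounts of Subread, and the authors normalised and analysed the counts with edgeR. No tool version is given in the sources used here. In the submitters' processing notes mm8 is listed beside GRCm38, with no role.

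The authors deposited log2 CPM of 20540 genes, with 0 reads at the same lowest value, -6.27, in every library. Each value raised from the log2 scale, less that of 0 reads, gave CPM, and 100% of values were whole multiples of 1 read within 0.01 reads. Assigned reads per library were 15548418 to 24972188, and normalisation factors 0.961 to 1.05. These set the precision, and 3 reads, the limit that a count of 0 allows, come to 0.116 to 0.200 CPM and cover counting error only.

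limma 3.58.1 in R 4.3.3 (empirical Bayes with trend, two-sided) was fitted to log2(CPM + 1) of all genes that reached 1 CPM in 3 or more of the fitted libraries, with Benjamini-Hochberg adjustment over all genes tested and a threshold of 0.05. The mimics were compared in the 6 libraries of each kind of RNA. Pulldown was compared with whole-cell RNA, and that contrast between mimics, in all 12 libraries with a pooled spread. Other pseudocounts, filters and scalings, limma voom on the recovered reads, a replicate block, other sets of libraries in the fit and leaving out each library were tried. The fits were also run on simulated counts with the same spread in every group. Replicate spread differed between the groups here, so the simulation does not check the pooled spread. Tables used Python 3.11.15, pandas 2.3.3 and numpy 2.4.6, and plots matplotlib 3.10.9.

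Replicate numbers come from the sample titles. No label says that a number marks a shared culture. In the mimic comparison within pulldown RNA, same-numbered libraries deviated together (r = 0.135, 0.275 and 0.107). The blocked value is given there where it changes a call, with the pairing taken from these correlations alone. Same-numbered libraries did not deviate together in whole-cell RNA (-0.03 to 0.000857), nor in every pair between pulldown and whole-cell RNA (-0.10 to 0.01 under control mimic, 0.01 to 0.16 under miR-27a).

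All 10 members are named, with up to 4 genes per list by smallest p, listed relatives, and the 3 genes most like Fos, Jun and Egr1. The members and lists were chosen with earlier results of these data known. Of the deposited genes 18013 (87.7%) matched GENCODE M21 by symbol.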

Additional observations from a re-analysis of the deposited data

Results flagged for a closer look

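For 4 genes of the lists the change under miR-27a mimic differed between pulldown and whole-cell RNA by the test of that difference in the fit of all 12 libraries, and no member did. Spry1, the feedback inhibitor, had a difference of -0.50 (limma adjusted p = 0.0123). Plk2, a stress-induced kinase, fell in whole-cell RNA from 73.5 to 55.5 CPM (-0.40 ± 0.05, limma adjusted p = 1.04e-06) and had a difference of 0.43 (0.0134). Btg2 had a difference of 0.53 (limma adjusted p = 0.0191), and Tnc one of 0.41 (0.0337).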

How the results depend on the processing

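Over 38 member changes and 609 alternatives, 546 kept direction and side of the threshold, 21 lost the call, 23 gained it and 19 turned direction. The falls of Fos (limma adjusted p from 1.58e-06 to 0.000485 in whole-cell RNA and from 0.000296 to 0.0340 in pulldown RNA) and of Junb in pulldown RNA (2.35e-08 to 0.00464) passed under every alternative run. Leaving out each library in turn, members called numbered 1 to 3 for the mimics in whole-cell RNA (2 with all libraries, 1 without whole-cell miR-27a replicate 3), 2 throughout in pulldown RNA, 5 to 6 for pulldown against whole-cell RNA under control mimic, 3 to 6 under miR-27a (5 with all, 3 without whole-cell miR-27a replicate 2) and 0 to 1 for the difference of these contrasts. For that difference array weights called 2 members (Fosb and Junb) in a fit that stopped before it converged, and the cause was not tested. Array weights also called 1735 genes in all, against 149.

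The changes that turned direction were all small and uncalled. Leaving out 1 library gave -0.125 to 0.0284 for Jun in whole-cell RNA, -0.263 to 0.002 for Jund and -0.237 to 0.0721 for Egr1 in pulldown RNA, and -0.136 to 0.0156 for Fosb between pulldown and whole-cell RNA under control mimic. For the difference of contrasts it gave -0.0494 to 0.0974 for Fos, -0.131 to 0.0632 for Fosl2 and -0.152 to 0.157 for Egr1. Array weights turned Fosl2 to 0.0506 and Egr1 to -0.175 there, and a pseudocount of 4 CPM turned Egr1 to -0.0018. The cause was not tested.

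The replicate block left the counts of members called within 1.5 times those without it. In pulldown RNA it raised the genes called from 1781 to 2743 and changed the Fosl2 call, as given above, and no other member's. In whole-cell RNA, where same-numbered libraries did not deviate together, blocked limma adjusted p-values were 0.0431 for Fosl2 and 0.0556 for Nr4a1. Of the genes called in pulldown RNA, leaving out 1 library gave 969 to 2691, and the fit of all 12 gave 3051. For the difference of contrasts leaving out 1 library gave 43 to 473 genes and no filter gave 73, against 149. Without a filter, or with all 12 libraries in the fit, whole-cell RNA had 2657 and 1415 genes called in place of 3335. Depth limits Fosb, Egr2 and Fosl1, at 173, 84 and 10 reads in all.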

Other observations

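Heat-shock and dissociation-stress genes, a further group induced by handling of cells, held 1 rise and 5 falls of 16 under miR-27a in whole-cell RNA. In pulldown RNA they held no rise and 4 falls. Of all genes tested, 13% rose and 11.9% fell in whole-cell RNA, and 6.05% rose and 7.06% fell in pulldown RNA. Hspb1, a small heat-shock protein, fell from 4.43 to 2.64 CPM in whole-cell RNA (-0.58 ± 0.13, limma adjusted p = 0.00234) and from 5.08 to 2.62 CPM in pulldown RNA (-0.75 ± 0.19, 0.0151). Socs3, a feedback inhibitor of cytokine signalling, fell in both too (-0.20 ± 0.06 and -0.35 ± 0.10, limma adjusted p = 0.0149 and 0.0331). Cebpd and Cebpb, leucine zipper factors of acute inflammation, fell in pulldown RNA from 49.2 to 30.4 CPM (-0.68 ± 0.11, limma adjusted p = 0.000696) and from 8.88 to 4.36 CPM (-0.89 ± 0.14, 0.000713).

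Genes that either bind AU-rich elements or act in mRNA decay held 1 fall and no rise of 18 in whole-cell RNA. Of all genes tested there, 24.9% were called. None of 18 passed in pulldown RNA by limma (1 at an unadjusted p under 0.05, and 0 by voom), where 13.1% of all genes were called. The fall was that of Cnot7, a deadenylase subunit, from 117 to 105 CPM (-0.14 ± 0.04, limma adjusted p = 0.0158). Between pulldown and whole-cell RNA under control mimic 7 rose and 5 fell of 18, where 62% of all genes were called, with Elavl3, a neuronal RNA-binding protein, going from 57.4 to 28.4 CPM (-0.99 ± 0.08, limma adjusted p = 8.01e-09).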
